A study of Mus musculus with 2 samples.

Results

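The regions described here are those of mouse genes that carry 6 or more H3K9ac regions. In the authors' deposited table a region is assigned to 1 gene label or to none. Genes were kept when at least 6 of their regions overlapped the label, on chromosomes 1 to 19 except 15 and without the label Gm20388. This gave 90 genes with 743 regions. Those chromosomes held 11671 gene labels besides Gm20388 and 19158 regions, with or without a label, and the whole table held 20615 regions. Of the 743 regions, 679 overlapped the gene label and 64 lay beside it (28 upstream and 36 downstream). The choice used positions and labels, not the difference between the libraries.

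The study compared H3K9ac chromatin immunoprecipitation from the spleens of leukemic mice of 2 strains, Gfi1 36S/S-Nup98/HoxD13 and Gfi1 36N/N-Nup98/HoxD13, called 36S and 36N here. Both groups carry the NUP98/HOXD13 fusion, and by what is known of these strains both copies of the Gfi1 gene hold a human GFI1 cDNA, in the common 36S form or in the 36N variant form. Each strain gave 1 library, and differences between the libraries have no replicates behind them, so none was tested. Spleens were homogenised and red cells lysed, and an antibody to acetylated lysine 9 of histone H3 was used on cells fixed with formaldehyde (0.4%). The tissue is a mixture of cells, and fewer cells of a type and less acetylation per cell cannot be told apart in it.

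H3K9ac is placed on nucleosomes by acetyltransferases and taken off by histone deacetylases, and it marks active gene starts and active enhancers. GFI1 is a zinc finger repressor of blood cell genes that brings histone deacetylases and a lysine demethylase to the sites it binds. A gene with a region at its start only has 1 value for this mark; a long gene with further starts and intragenic enhancers has several, which can be read against each other within the same pair of libraries.

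RefSeq gave an annotated start for 69 of the 90 genes, and in 31 of them the longest region covered it, so the sequences at starts are shown first. They are the RefSeq promoter windows (GRCm38.p6, from 250 bases before to 50 bases after a start, 5′ to 3′) of the 3 start regions with the lowest and the 3 with the highest difference between the libraries. CG dinucleotides, the sites of DNA methylation and the mark of CpG-rich promoters, are in capitals. The window of Dpf3, which encodes a subunit of the BAF chromatin remodelling complex, lay at chr12:83487687-83487986, minus strand. The window of Obfc1, a telomere maintenance gene, lay at chr19:47537070-47537369, minus strand, and that of St7 at chr6:17748920-17749219, plus strand. These 3 had the lowest values, −1.62, −1.32 and −1.26 log2 units.
Dpf3: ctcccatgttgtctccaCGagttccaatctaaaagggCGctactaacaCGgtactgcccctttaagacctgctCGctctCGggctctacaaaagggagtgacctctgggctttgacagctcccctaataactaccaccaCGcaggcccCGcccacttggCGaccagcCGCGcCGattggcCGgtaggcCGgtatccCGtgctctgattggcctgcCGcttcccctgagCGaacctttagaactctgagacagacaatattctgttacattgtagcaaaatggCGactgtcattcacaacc
Obfc1: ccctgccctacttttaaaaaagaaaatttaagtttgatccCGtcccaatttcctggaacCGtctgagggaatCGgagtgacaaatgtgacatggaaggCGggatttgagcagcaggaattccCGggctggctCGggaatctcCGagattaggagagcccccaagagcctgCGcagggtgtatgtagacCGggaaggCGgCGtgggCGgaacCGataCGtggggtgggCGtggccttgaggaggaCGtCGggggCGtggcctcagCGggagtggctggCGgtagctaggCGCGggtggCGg
St7: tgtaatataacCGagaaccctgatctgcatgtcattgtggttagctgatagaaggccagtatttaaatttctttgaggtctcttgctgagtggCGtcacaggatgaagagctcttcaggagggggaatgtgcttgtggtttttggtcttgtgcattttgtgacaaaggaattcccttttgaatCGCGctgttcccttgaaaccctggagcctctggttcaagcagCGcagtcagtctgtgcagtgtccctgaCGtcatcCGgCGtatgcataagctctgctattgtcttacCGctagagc
The highest values belonged to starts of Hlcs, which encodes the ligase that attaches biotin to carboxylases (chr16:94290242-94290541, minus strand), of Pde7b, a cAMP phosphodiesterase (chr10:20548279-20548578, minus strand), and of Wipf1, a partner of the Wiskott-Aldrich syndrome protein in actin assembly (chr2:73529438-73529737, minus strand). Their differences were 2.27, 2.17 and 1.97 log2 units.
Hlcs: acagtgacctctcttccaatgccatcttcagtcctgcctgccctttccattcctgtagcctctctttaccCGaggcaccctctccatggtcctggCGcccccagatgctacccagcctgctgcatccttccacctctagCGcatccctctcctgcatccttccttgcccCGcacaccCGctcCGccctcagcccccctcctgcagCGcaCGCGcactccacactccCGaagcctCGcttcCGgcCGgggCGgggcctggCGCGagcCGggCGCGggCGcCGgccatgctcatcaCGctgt
Pde7b: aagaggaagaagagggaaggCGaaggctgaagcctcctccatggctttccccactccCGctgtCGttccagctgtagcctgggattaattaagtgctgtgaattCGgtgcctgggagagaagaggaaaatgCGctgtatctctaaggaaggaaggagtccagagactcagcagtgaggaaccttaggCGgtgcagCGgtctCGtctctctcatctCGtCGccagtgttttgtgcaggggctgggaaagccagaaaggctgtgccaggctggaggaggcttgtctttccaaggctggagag
Wipf1: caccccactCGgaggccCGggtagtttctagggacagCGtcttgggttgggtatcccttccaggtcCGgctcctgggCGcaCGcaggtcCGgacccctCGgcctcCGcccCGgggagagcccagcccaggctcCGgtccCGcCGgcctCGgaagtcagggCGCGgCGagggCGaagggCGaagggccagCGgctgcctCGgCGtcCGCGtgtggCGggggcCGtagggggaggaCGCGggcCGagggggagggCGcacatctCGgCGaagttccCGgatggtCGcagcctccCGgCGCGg
The 6 windows held 17, 23, 9, 22, 10 and 37 CG dinucleotides in the order printed. Both ends of the ranking therefore include a window with few of them (St7 and Pde7b) and windows with many. Across the 59 distinct windows under start regions of 42 genes, the median was 22 CG dinucleotides and 64.7% G and C, against 7 and 52.7% over all 32851 windows of the RefSeq table. The motif AATCAC, the core of the GFI1 binding sequence, was found on either strand in 8.47% of the 59 windows and in 10.4% of all. The motif AGATAA, read by a family of erythroid and other factors, was found in none of the 59 and in 11.2% of all. The motif TGTGGT, bound by RUNX factors, was found in 10.2% and 16.8%. The motif CAGGAA, bound by ETS factors, was found in 30.5% and 30.6%. These are matches of letters and no measure of binding.

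The members held few reads each. The median region had 59 reads in 36S (7 to 2296) and 51 in 36N (5 to 2693), against 95 and 84 over all 19158 regions, and was 1050 bp long (300 to 4200 bp). No member was at 0 reads in either library. Together they held 2.29% of the reads in regions in 36S and 2.5% in 36N. The table as a whole held 4989632 reads (36S) and 3292869 reads (36N), and total sequencing depth is not known. Differences are 36N minus 36S on the log2 scale, each with the exact 95% interval of its 2 read numbers, which covers counting error only. Reads without molecular identifiers are not independent molecules, so the true error is wider.

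In the 743 regions the difference ran from −2.39 to 2.90, with a median of −0.22 and quartiles of −0.78 and 0.28, and the median over all 19158 regions was −0.37. By a rule of size of 1 log2 unit, which is no test, 26 member regions (3.50%) were higher in 36N and 122 (16.4%) were lower. Over all regions the shares were 7.73% higher and 12.5% lower. A difference below 0 was found in 472 members (63.5%), beside 65.5% of all regions. Counting error alone left 25 of the 26 and all 122 of the 122 with an interval on their side of 0. In the whole table the difference depended on the level: regions with many reads tended to be lower in 36N. For this reason a level-adjusted difference was also computed, as what remains of the difference after a smooth trend on mean level is taken out. On that scale 40 members (5.38%) were higher and 97 (13.1%) lower, against 8.35% and 7.46% of all regions, and against 8.35% and 9.89% of the 5842 regions in the 2057 genes with 2 to 5 overlapping regions. Level-adjusted values below 0 were found in 410 members (55.2%), beside 49.7% of all regions. Taken relative to the median region of the table, which shifts every value by 0.40, the members split into 85 higher and 59 lower, beside 14.9% and 4.31% of all regions, so the majority direction of the large differences depended on the scaling.

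Of 8 stem and progenitor markers, which leukemic cells of this kind can carry, all 8 had a region, with 1123 reads in all in 36S and 1102 in 36N, and 2 were higher and 1 lower by 1 log2 unit. Markers of some other cell types also differed between the libraries. Of 14 erythroid markers 5 had a region, and all 5 were lower in 36N by at least 1 log2 unit, with 2515 reads in all in 36S and 652 in 36N at their strongest regions; the other 9 had no region in the table. Of 10 T cell markers 8 had a region (1320 and 537 reads) and 3 were lower by that size. Of 11 monocyte and macrophage markers 10 had a region (1911 and 2301 reads), 2 of them higher and none lower. Of 7 megakaryocyte markers 5 had a region (824 and 444 reads) and 2 were lower. None was past that size among 7 granulocyte markers with a region (2919 and 2407 reads) or 3 of NK cells (334 and 453). The same held for 4 endothelial and stromal markers with a region (145 and 186 reads). Of 3 B cell markers with a region (119 and 127 reads) 1 was higher and none lower. Over all regions of the 18 chromosomes used, 7.73% were higher and 12.5% lower by that size. Level-adjusted, the medians were −1.09 for erythroid, −0.50 for T cell and −0.51 for megakaryocyte markers. They were 0.29 for granulocyte, 0.52 for monocyte and macrophage, 0.10 for B cell and 0.68 for NK cell markers. Endothelial and stromal markers had 0.33, and stem and progenitor markers 0.66. Whether the share of these cells has a part in the differences of the member genes was not tested.

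**Figure D1:**
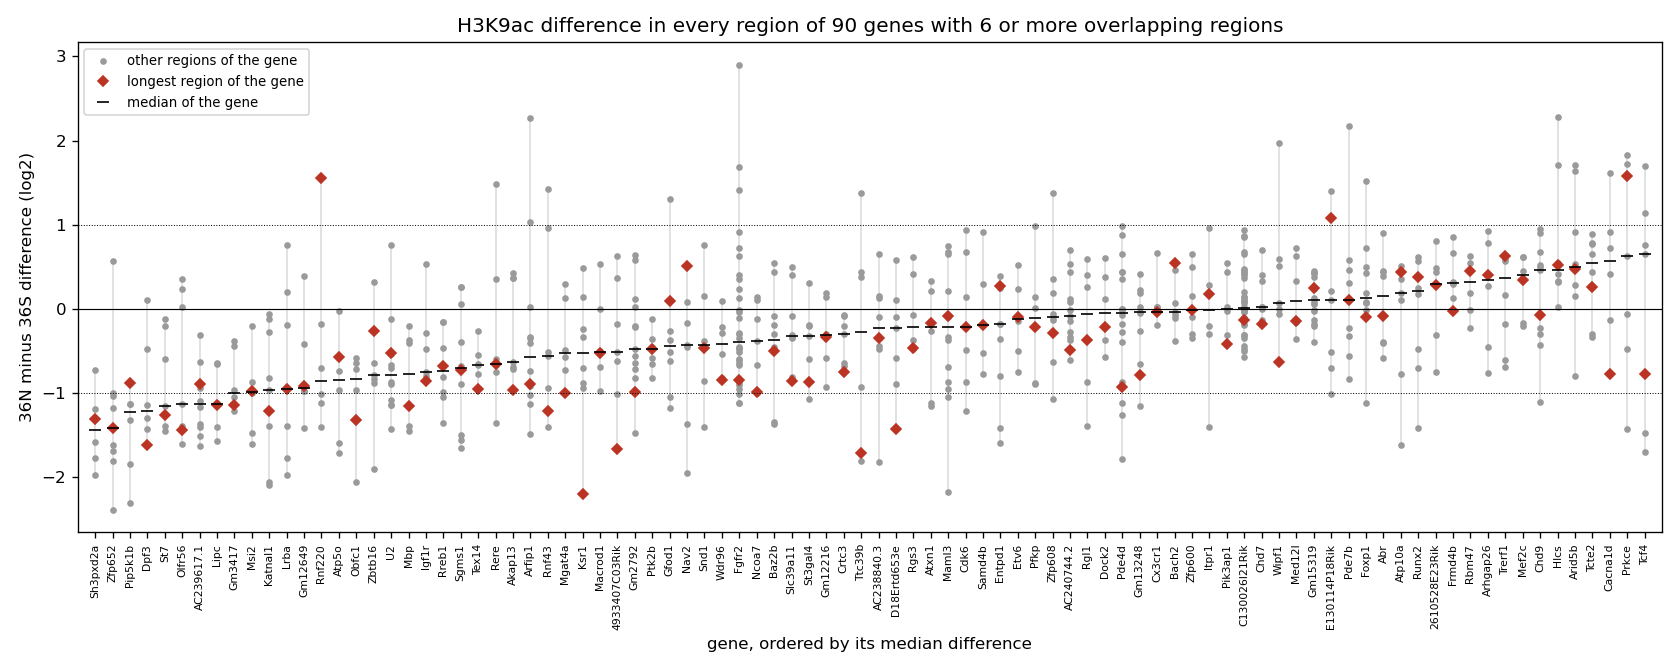
Every region of the 90 genes as a point: the vertical axis is the 36N minus 36S difference in log2 units, and genes are ordered along the horizontal axis by their median. Diamonds mark the longest region, short bars the gene's median, and dotted lines the size of 1 log2 unit; regions of 74 of the 90 genes lie on both sides of 0.

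Regions of 1 gene often differed. In 74 of the 90 genes some regions were higher and others lower in 36N. With 63.5% of member regions below 0, unrelated regions would also often give both signs within a gene. The counting intervals of 382 member regions included 0, so the sign of many regions is uncertain. The count of genes with both signs therefore does not by itself show that regions of a gene differ. In 1 gene, Hlcs, no region was lower. Of all members 11 had equal read numbers in both libraries and stand at 0.03 through the constant in the 36N values, among them 1 region of Hlcs. In 15 genes every region was lower as deposited: Katnal1, Rreb1, Ptk2b, St7, AC239617.1, Crtc3, Atp5o, Gm3417, Lipc, Mbp, Msi2, Obfc1, Pip5k1b, Sh3pxd2a and Tex14. On the level-adjusted scale Rreb1, Ptk2b, St7, Crtc3 and Atp5o had a region above 0, at most at 0.42, 0.20, 0.14, 0.13 and 0.02. The labels Katnal1, Atp5o and Gm3417 reached beyond the RefSeq gene of that name, and AC239617.1 had no RefSeq gene. The range of the difference within a gene had a median of 1.68 log2 units (0.68 to 4.02), was under 1 in 14 genes and over 2 in 36. Regions past 1 log2 unit in both directions occurred within 12 genes, at least 1 higher region in 17 genes, at least 1 lower region in 54, and none past that size in 31. Over all regions 7.73% were higher and 12.5% lower by that size. The more regions a gene holds, the more easily 1 of them is past it, so these counts do not set the genes apart. The pooled SD within genes was 0.68, close to the SD of 0.77 over all member regions, while counting error at these read numbers corresponds to an SD of 0.32. The intraclass correlation, the share of the variance that lies between genes, was 0.23, and 0.21 on the level-adjusted scale. In genes with 2 to 5 regions it was 0.32 and 0.26. The plot of every region by gene shows these spreads.

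Distance within the gene went with the spread. In the 70 genes whose regions lay on the RefSeq gene of the same name, pairs of regions of the same gene less than 5 kb apart differed by a median of 0.44 log2 units (34 pairs), pairs 20 to 50 kb apart by 0.52 (463 pairs) and pairs 200 to 2000 kb apart by 0.75 (300 pairs). The same sign was shared by 64.7% of the closest pairs, which came from 22 genes, and by 47.0% of the farthest, from 25 genes. Long genes with many regions, such as Pde4d, weigh most in the farthest class. Pairs of any 2 regions of the table at matched distances differed by similar amounts, 0.42 below 5 kb, 0.55 from 20 to 50 kb and 0.64 from 100 to 200 kb, where member pairs differed by 0.68. Regions share pairs and genes, so these medians are descriptions.

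**Figure D2:**
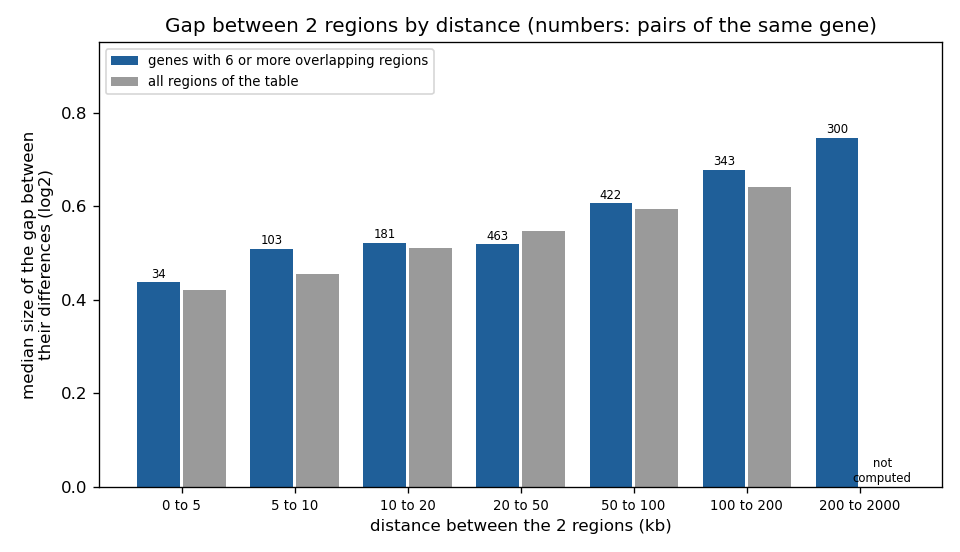
Bars give the median absolute gap between the differences of 2 regions (log2 units, vertical axis) by the distance between them (kb, horizontal axis), for pairs within 1 of the 70 genes on their RefSeq gene and for pairs of all regions in the table; numbers are pairs within genes. The gap within genes is 0.44 below 5 kb and 0.75 from 200 to 2000 kb; the bar for all regions was not computed for the last class.

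The longest region of a gene stood apart from its other regions in size first of all. Its median length was 2850 bp against 900 bp for the others, its median reads were 366 (36S) and 287 (36N) against 51 and 44, and in 72 of the 90 genes it was also the region with the highest mean level. Its median difference was −0.48, and that of the 653 other regions −0.20. Gene by gene, the longest region minus the median of the others had a median of −0.17 (quartiles −0.50 and 0.10) and was below 0 in 61 of 90 genes. In the 2057 genes with 2 to 5 regions the median was −0.25, with 62.5% of genes below 0. On the level-adjusted scale the direction turned: the median was 0.22, and the longest region was below the others in 27 genes and above them in 63. There the genes with 2 to 5 regions had a median of 0.17, with 40.4% below 0. The side on which the longest region falls therefore depends on whether the trend with level is removed.

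The longest region and the median of the others had the same sign in 67 of 90 genes (58 level-adjusted), and their values had a Pearson r of 0.46 over the 90 genes (0.45 level-adjusted), given as a description since all points come from the same 2 libraries. In genes with 2 to 5 regions r was 0.43 (0.34 level-adjusted), and the sign was the same in 1363 of 2057 genes (1246 level-adjusted). Of the longest regions of the 90 genes 77.8% lay below 0, and of their other regions 61.6%. Part of the shared signs can come from these shares alone. Of the 653 other regions, 409 (62.6%) had the sign of their gene's longest region, beside 63.6% in genes with 2 to 5 regions, and 392 (60.0%) did so level-adjusted. Of the same 653, 309 lay within 0.5 log2 units of it and 140 (21.4%) lay 1 log2 unit or more away. Counting intervals of 471 of them overlapped the interval of the longest region, 126 lay wholly above it and 56 wholly below.

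**Figure D3:**
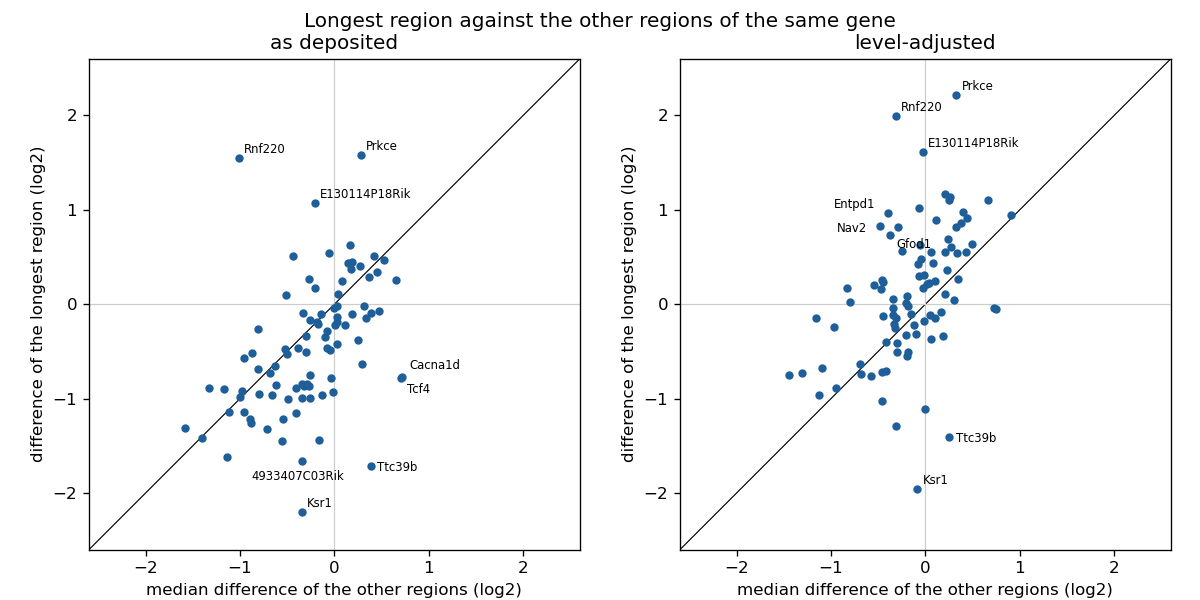
Each point is 1 of the 90 genes: the vertical axis is the difference (36N minus 36S, log2) of the longest region and the horizontal axis the median difference of its other regions, as deposited (left) and level-adjusted (right). Points below the diagonal are genes whose longest region is lower than the others: 61 genes on the left, 27 on the right.

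In 3 genes the longest region stood 1 log2 unit or more above the median of the others, and in 6 it stood as far below. Besides the genes described next, these were the labels E130114P18Rik, at 1.28 (1.64 level-adjusted), 4933407C03Rik, at −1.32, and D18Ertd653e, at −1.27. On the level-adjusted scale the balance turned, with 10 genes that far above and 3 that far below. Of the 2057 genes with 2 to 5 regions, 137 stood that far above and 322 that far below. Level-adjusted, these were 300 and 137. Rnf220, an E3 ubiquitin ligase gene, had the largest positive gap. Its longest region, 2550 bp near the 5′ end, had 102 reads in 36S and 294 in 36N, a difference of 1.55 (1.22 to 1.89). Its 5 other regions had 558 and 272, 44 and 38, 40 and 18, 237 and 88, and 213 and 128 reads in 36S and 36N, differences of −1.01, −0.18, −1.13, −1.40 and −0.71. All 5 were lower in 36N and none of their intervals reached that of the longest region, which gave a longest minus others value of 2.56 (2.30 level-adjusted). The region with the highest level in Rnf220 was not the longest but the first of these 5.

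Prkce, which encodes the epsilon form of protein kinase C, followed with 1.29. Its longest region had 178 reads in 36S and 521 in 36N (1.58), and 2 small regions with 8 reads each in 36S had 26 and 28 in 36N (1.73 and 1.83). The other 4 regions of Prkce lay at −0.48, −1.43, −0.06 and 0.63, so its regions covered a range of 3.26 with both directions past 1 log2 unit. The next genes had gaps under 1 log2 unit. In Nav2, a cytoskeleton-associated gene with a gap of 0.95, the longest region covered the start and had 105 reads in 36S and 147 in 36N (0.51), while the other 6 ran from −1.95 to 0.09. Gfod1 and Bach2 had gaps of 0.60 each. Bach2, a transcriptional repressor of B and T cells, had 162 and 232 reads over its start (0.54), and its 6 other regions stayed between −0.39 and 0.46.

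Ttc39b had the largest negative gap, −2.10 (−1.66 level-adjusted). It was −0.79 with only regions of at least 30 reads on average and −1.31 with the strongest region in place of the longest. Its longest region, 1800 bp about 50.5 kb into the gene, had 217 reads in 36S and 65 in 36N, a difference of −1.71 (−2.14 to −1.31). Its start region had 33 and 84 reads, a difference of 1.37 (0.78 to 2.0), and its remaining regions lay at −1.81, 0.38, 0.44 and −0.92. The start and 2 of the 5 regions inside thus lay past the size rule in opposite directions, within 58.6 kb. Ksr1, a scaffold of the Ras to MAP kinase pathway, had 216 and 46 reads in its longest region (−2.20, interval −2.70 to −1.74), while its 7 other regions ran from −0.94 to 0.49 and the start region with 584 and 352 reads lay at −0.70. The gap of Ksr1 was −1.86 (−1.87 level-adjusted), and −0.36 with the strongest region in place of the longest. The longest region, inside the gene, was the lowest of the 90 longest regions.

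Cacna1d, a subunit of an L-type calcium channel, had a gap of −1.49 (−0.77 level-adjusted). Its longest region had 661 reads in 36S and 380 in 36N (−0.77) and overlapped the neighbouring gene Dcp1a as well; with regions over another coding gene left out, the next longest stood above the others (0.35). The other 5 Cacna1d regions ran from −0.13 to 1.61. Tcf4, an E protein transcription factor, had 706 and 404 reads in its longest region (−0.78) and a gap of −1.48 (−0.79 level-adjusted, and −0.96 as deposited against the mean of the others). Its 6 other regions split into 4 at 1.14, 0.75, 0.65 and 1.69 and 2 at −1.47 and −1.70, so that none of the 6 intervals overlapped that of the longest. In Wipf1, whose gap was −0.93 (−0.26 level-adjusted), the longest region covered 1 annotated start and had 450 and 284 reads (−0.64), and the region over the 5′ start, whose sequence is printed above, had 58 and 223 (1.97, interval 1.55 to 2.41). The other 5 Wipf1 regions lay between −0.06 and 0.59.

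**Figure D4:**
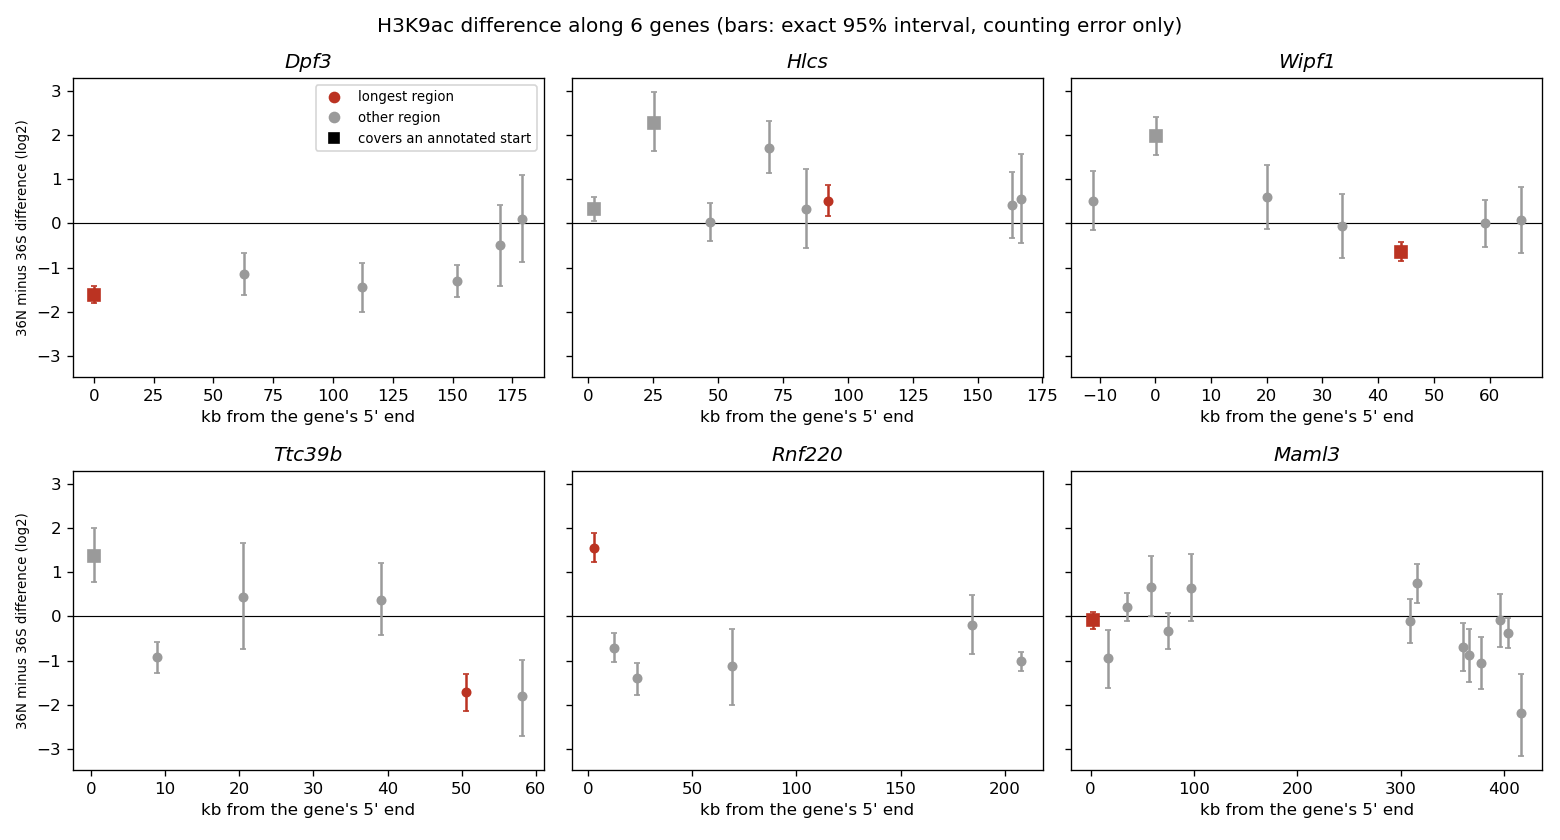
The 36N minus 36S difference (log2, vertical axis) of every region of 6 genes against its distance from the gene's 5′ end (kb, horizontal axis), with exact 95% intervals for counting error. Red marks the longest region and squares mark regions over an annotated start; Hlcs lies at or above 0 throughout, Dpf3 is below 0 in 5 of 6 regions, and Ttc39b and Rnf220 have regions past 1 log2 unit on both sides of 0.

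Some genes were lower in nearly all their regions. Sh3pxd2a, a scaffold protein gene of podosomes, had the lowest gene median, −1.45 (−1.28 level-adjusted). Its 6 regions had 69, 56, 181, 86, 125 and 392 reads in 36S and 41, 14, 52, 37, 41 and 155 in 36N. All 6 were lower in 36N, from −0.72 to −1.97, and the intervals of all 5 others overlapped that of the longest. Obfc1, its neighbour on chromosome 19, was lower in all 6 regions with a median of −0.84, and Wdr96, further along, in 5 of 6 with a median of −0.41. Of the 6 Wdr96 regions 1 lay on the RefSeq gene of that name.

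Dpf3 had 925 reads in 36S and 296 in 36N over its start (−1.62, interval −1.81 to −1.43). Its 3 middle regions had 218 and 87, 107 and 39, and 128 and 57 reads, differences of −1.30, −1.43 and −1.14. Only the 2 regions at the 3′ end, with 27 and 19 and with 19 and 20 reads, lay nearer to 0 (−0.48 and 0.10), and their intervals were wide. Pip5k1b, a lipid kinase that makes phosphatidylinositol bisphosphate, was lower in all 6 regions, from −0.89 to −2.31. Its longest region, with 956 and 508 reads, was the nearest to 0 and also overlapped Fam122a. Msi2, an RNA-binding protein of blood stem cells, was lower in all 6 regions (−0.20 to −1.61), with 1067 and 531 reads over its start (−0.98).

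Zbtb16, also called PLZF, a zinc finger repressor of progenitors and innate lymphocytes, had a median of −0.79 over 7 regions, of which 6 were lower. Its longest region had 191 and 156 reads (−0.27), its lowest region, upstream in the table's labelling, 122 and 32 (−1.90). Zfp652 was lower in 8 of 9 regions (median −1.41), and 1 of the 9 lay on the RefSeq gene of that name. Its lowest region had 187 and 35 reads, −2.39, the lowest of all 743. Its longest region, 4050 bp with 937 and 345 reads, lay over Phospho1 and another with 353 and 107 reads over Abi3, so the value of the label is not that of 1 gene.

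As deposited, the gene median was below 0 in 66 genes and at or above 0 in 24. Level-adjusted, these counts were 51 and 39. The median over all regions of those chromosomes was itself below 0, at −0.37. Hlcs had no region lower in 36N, and 1 of its 8 had 95 reads in both libraries. Its reads were 16, 29, 114, 21, 34, 95, 24 and 200 in 36S and 23, 38, 160, 26, 109, 95, 114 and 245 in 36N. Just 2 of these stood past 1 log2 unit, the start printed above with 24 and 114 reads (2.27) and a region with 34 and 109 (1.71), and the other 6 lay between 0.03 and 0.55. Arid5b, a DNA-binding partner of a histone demethylase, was higher in 7 of 8 regions with a median of 0.50. Its longest region had 258 and 351 reads (0.47), and 2 small ones with 17 and 52 and with 9 and 29 reads lay at 1.64 and 1.71.

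Foxp1, a forkhead transcription factor of B cell and stem cell development, had 10 regions with a median of 0.13 (0.55 level-adjusted). Its 3 start regions had 258 and 265, 177 and 286, and 955 and 873 reads, differences of 0.07, 0.72 and −0.10. Between them lay 1 region at −1.12 (250 and 113 reads) and 1 at 1.52 (17 and 48 reads). The label Tcte2 had the highest level-adjusted median, 0.91 over 8 regions, but 1 of them lay on the RefSeq gene of that name. Its longest region was the strongest of all members, 2296 reads in 36S and 2693 in 36N (0.26).

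Clone-named labels left out, the smallest ranges within a gene, 0.68 to 0.86, were those of Crtc3, Tex14, Ptk2b, Mef2c and Rbm47. Crtc3, a coactivator of CREB, was lower in all 7 regions, from −0.07 to −0.75, with 671 and 392 reads over its start. Tex14, a gene of germ cell bridges, was lower in all 6 regions, from −0.26 to −0.96. Ptk2b, the focal adhesion kinase PYK2, was lower in all 7 (−0.12 to −0.82), with 417 and 295 reads in the longest. Mef2c, a MADS box factor of lymphoid and myeloid cells, and Rbm47, an RNA-binding protein gene, each had 4 regions above 0 and 2 below, with 222 and 277 and with 196 and 263 reads over their starts. In these genes the intervals of all others overlapped that of the longest region, apart from 1 in Crtc3.

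Clone-named labels left out, the genes with most regions on their RefSeq gene were Pde4d, Maml3 and Chd9. Pde4d, a cAMP phosphodiesterase gene spread over 1406 kb of regions, had 18 regions from −1.79 to 0.99 with a median of −0.05. Its longest region had 376 and 194 reads (−0.93), and 10 of the 17 others had intervals wholly above it. Maml3, a coactivator of Notch signalling, had 14 regions from −2.18 to 0.75. Its start region, 4050 bp and the longest, had 459 and 424 reads (−0.09), and the region farthest from it, at the 3′ end, had 60 and 13 (−2.18). Chd9, a chromatin remodeller, had 11 regions, 5 below 0 and 6 above, from −1.11 to 0.95.

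Labels and genes were not always the same. Of the 90 labels, 70 had 6 or more overlapping regions on the RefSeq gene of that name, with 520 regions; 14 labels reached beyond it and 6 had no RefSeq gene. The 32 regions labelled Fgfr2 lay at chr7:130481551-133123500, whereas RefSeq places this growth factor receptor gene elsewhere on the chromosome, and none of the 32 was on it. They lay over Tacc2, Plekha1, Ikzf5, Bub3, Chst15, Fam53b, Ctbp2 and other genes. The largest range of any label, 4.02, arose there. The region over Ctbp2, a corepressor, with 44 reads in 36S and 323 in 36N was the highest of all members (2.90, interval 2.44 to 3.39), while the one over Bub3, with 609 and 276, lay at −1.12. Arfip1, with 12 regions from −1.49 to 2.26, had 2 on its RefSeq gene, and its longest region (1386 and 735 reads, −0.89) lay over Fbxw7. The 12 regions labelled U2, a small nuclear RNA with many copies, lay on 3 chromosomes. The 36 regions labelled C130026I21Rik, at a locus with near-identical copies, had a median of 0.01 and none past 1 log2 unit; the counting of reads that match several copies is not described in the sources used here. For the 70 genes alone, the longest minus others median was −0.13 (0.29 level-adjusted), the pooled SD within genes 0.68 and the intraclass correlation 0.22.

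Start regions were then set against regions inside the gene, in the 44 genes of those 70 with an annotated start under a region. The 59 start regions had a median of 258 reads in 36S and 240 in 36N and the 251 regions inside a median of 52 and 43. Of the start regions 5 (8.47%) were higher in 36N by at least 1 log2 unit and 3 (5.08%) lower, and of the regions inside 4 (1.59%) were higher and 39 (15.5%) lower, beside 7.73% and 12.5% of all regions. Per gene, the start region minus the median of the regions inside had a median of 0.13 and was above 0 in 24 of 44 genes. On the level-adjusted scale it had a median of 0.67 and was above 0 in 40 of 44 genes (90.9%). In 1099 genes with 2 to 5 regions the medians were −0.10 and 0.37, with 45.8% and 69.7% of genes above 0. Level adjustment moved the median of the 59 start regions from −0.15 to 0.42 and that of the 251 regions inside from −0.20 to −0.08. How far starts stood above the interior therefore depended on whether the trend with level is removed.

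Ttc39b had the largest such gap, 2.30, with its start at 1.37 and its interior at −0.92. It was followed by Rnf43, a ubiquitin ligase that restrains Wnt signalling, at 1.71, with 31 and 59 reads over the start (0.96) and 337 and 142 in the longest region, inside the gene (−1.22). Pde7b had 2 unlike start regions whose median lay at 1.14, and its 5 regions inside had a median of −0.32. The start printed above had only 12 and 53 reads (2.17, interval 1.25 to 3.21), and the other, in the longest region of Pde7b, lay at 0.11. In Cacna1d the start region inside the gene's annotated span had 16 and 48 reads (1.61). The lowest value was that of the label 2610528E23Rik, −1.12. Runx2, a runt domain transcription factor, followed at −0.73 and had its start at −0.48 and its interior at 0.25, and this start region also overlapped Supt3.

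**Figure D5:**
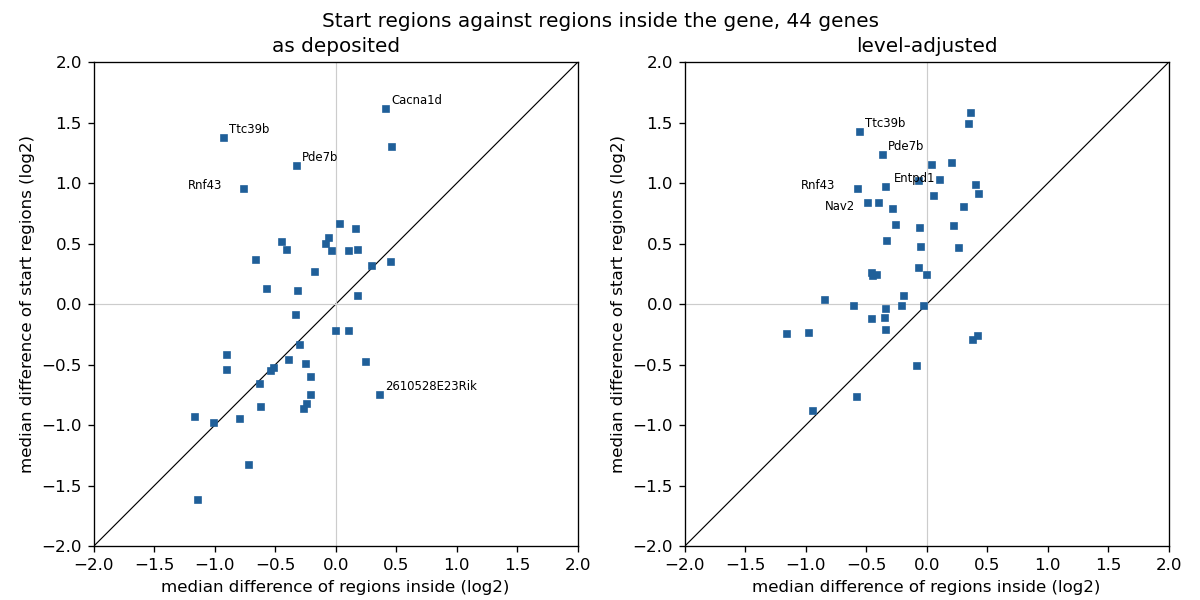
Each point is 1 of 44 genes: the vertical axis is the median difference (36N minus 36S, log2) of its start regions and the horizontal axis that of its regions inside, as deposited (left) and level-adjusted (right). Points above the diagonal have the start higher than the interior: 24 genes on the left and 40 on the right.

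By function, 7 of the 90 genes were among 69 listed blood transcription factors, Foxp1, Runx2, Bach2, Tcf4, Zbtb16, Etv6 and Mef2c. Of their 51 regions 3 were higher and 5 lower by the size rule, and the median was 0.06, beside −0.22 for all members. Their gene medians ran from −0.79 in Zbtb16 to 0.65 in Tcf4. Of 74 listed chromatin genes 2 were members, Chd7 and Arid5b, with 16 regions, 2 higher, none lower and a median of 0.31, beside 7.73% higher and 12.5% lower of all regions. The list does not hold Dpf3, with 4 of 6 regions lower, Baz2b, with 2 of 10 lower, or Chd9, with 1 of 11 lower; none of the 3 had a higher region. Chd7, a chromatin remodeller, had a median of 0.03 with 682 and 589 reads in its longest region (−0.18). Of 63 cytoskeleton genes 3 were members, Wipf1, Arhgap26 and Dock2, with 19 regions, 1 higher and none lower. Arhgap26 had the highest median of the 3, 0.34, with 451 and 587 reads in its longest region (0.41), and Dock2, which activates Rac in leukocytes, the lowest, −0.05. The cytoskeleton list does not hold Sh3pxd2a, with 5 of 6 regions lower, or Nav2, with 2 of 7 lower, and neither had a higher region. Of 110 kinase and adaptor genes 4 were members, Ksr1, Prkce, Ptk2b and Cdk6, with 29 regions, 3 higher, 3 lower and a median of −0.36. The kinase list does not hold the lipid kinase gene Pip5k1b, with 5 of 6 regions lower and none higher. The 74 genes in no list had 628 regions, 17 higher and 114 lower, with a median of −0.30.

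Near the cut-off, the 48 genes with exactly 6 overlapping regions had a median difference of −0.30 and a longest minus others median of −0.07. The 68 genes with exactly 5, just outside, had −0.24 and −0.39. The median SD within a gene was 0.54 and 0.58.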

How the data were processed

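H3K9ac chromatin immunoprecipitation was measured in 1 library per genotype (36S and 36N). Build mm10 and the tools STAR 2.5.0c, CASAVA 1.8.2 and SAMtools are named in the submitters' processing notes, without their roles; in the sources used here, nothing describes how regions were called, counted or labelled. The authors deposited 1 log2 value per library and region, not divided by length. Taken back from the log2 scale, 36S values were whole reads (0.9 standing for 0 in 13 regions), and 36N values whole reads times 1.02, each within 0.01 reads.

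The difference is log2 of 36N minus log2 of 36S. Its 95% interval (Clopper-Pearson, conditional on the sum of both read numbers) is exact. The level-adjusted difference is the residual of a lowess trend on the mean of the 2 log2 values (fraction 0.3). A size of 1 log2 unit counted as higher or lower; with 1 sample a group nothing was tested. Scripts were tested on simulated data. At the median member region, with 59 and 51 reads, counting error is large. Python 3.11.15, pandas 2.3.3, SciPy 1.17.1 and statsmodels 0.14.6 were used.

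Regions were set against RefSeq genes (GRCm38.p6): 79 labels matched by symbol and 5 by synonym. A start is a RefSeq promoter entry or the 5′ end of the RefSeq gene. No genome was used, so promoter windows stand in for the planned region sequences; they were chosen after values were seen. Named genes are those with most regions (6), the lowest and highest level-adjusted medians (6 each), the smallest and largest ranges (5 each), the largest gaps of the longest region either way (5 each) and the extremes of each list, leaving clone-named labels out of these ranks; Obfc1, St7, Pde7b, Rnf43, Runx2, Wdr96, Baz2b, the clone-named labels and the genes with every region lower were named after their values were seen. The members and lists were chosen with earlier results of these data known. Alternatives were other scalings, filters, thresholds, minimum numbers of regions, and RefSeq genes only.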

Additional observations from a re-analysis of the deposited data

How the results depend on the processing

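Of the 743 regions, those higher in 36N numbered 26 as deposited, 85 relative to the median region, 40 level-adjusted and 40 after quantile normalization, and those lower numbered 122 as deposited and 59 relative to the median region. With a size of 0.5 the counts were 110 and 271, and with 1.5 they were 16 and 36. With genes of 5 or more regions 45 of 1107 were higher, with 8 or more 8 higher and 33 lower of 232, and with genes on their RefSeq gene only 81 lower of 520. The longest minus others median turned from −0.17 to 0.22 level-adjusted and 0.20 after quantile normalization. The longest region was below the others in 61 of 90 genes, in 27 level-adjusted, 28 after quantile normalization, 110 of 158 with 5 or more regions and 13 of 18 with 8 or more. The median SD within genes moved from 0.62 to 0.69 with 8 or more regions and 0.52 as a scaled median absolute deviation. The start minus inside median was 0.67 level-adjusted and 0.67 after quantile normalization, above 0 in 40 and 40 of 44 genes. Among gaps of 1 log2 unit or more, Cacna1d turned without regions over another coding gene (0.35) and Rnf220 with its strongest region in place of the longest (−0.30). Smaller gaps turned too, such as Fgfr2 from −0.50 to 1.07 without regions over another coding gene and Chd9 from −0.55 to 0.16 with at least 30 reads. Of 344 values for the 34 named genes, 256 shifted by less than the counting interval of the longest region. Many of the 256 could not shift, so their number is no measure of stability. Centring on the median region leaves every gap as it was. Other minimum numbers of regions, and RefSeq genes only, keep all regions of a gene that stays in. Of the 344, the sign turned in 30, over 15 genes, 21 of them level-adjusted or after quantile normalization. The cause of these shifts was not tested. No paired analysis was possible because each genotype has 1 library. Low read numbers limit single regions: of the 743 counting intervals 382 include 0, and the spread between animals is not known.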
